A study of Mus musculus with 3 samples.

Results

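Interferon-stimulated genes are the effector genes that a cell switches on when interferon binds its receptors. A list of 39 such genes, given by symbol and chosen with earlier results of these data known, was followed through 5 cell classes of the mouse colon. Of the 39, 37 had rows in the files, among 32285 genes in all, and are called the members below. Mx1 and Mx2 were not analysed here. The list leaves out the Ifit family.

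The data are droplet single-cell RNA libraries of colon cells from germ-free mice, 1 library a group. All mice were germ-free before treatment. The BT mutant group was colonized with a mutant of BT, the BT WT group with BT WT, and the PBS group was given PBS. The labels do not spell out BT or the mutation, nor the time after colonization, the number of animals pooled, or their strain, sex or age. With 1 library a group no test could be run, so each value below compares libraries, and colonization cannot be told apart from anything else that differed between them.

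Interferons are secreted in response to microbial nucleic acids and other microbial signals. Types I and III act through the kinases Jak1 and Tyk2 on transcription factors that include Stat2 and Irf9, which bind a short GAAA repeat in target promoters called the interferon-stimulated response element. Type II interferon, the product of Ifng in lymphocytes, acts at a related TTC and GAA palindrome and is a strong inducer of guanylate-binding proteins. In the gut, the epithelium is known for its response to type III interferon through Ifnlr1.

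The promoters show how the members differ in these elements. RefSeq promoter windows (GRCm38.p6, 250 bases before to 50 bases after the start) were matched for 28 of the 39 listed genes. A pair of GAAA separated by 2 bases of any kind, searched on both strands, lay in the windows of 16 of the 28 genes (57.1%), against 3.99% of 27025 genes with a window. The 16 were Bst2, Ddx58, Eif2ak2, Gbp2, Gbp3, Gbp7, Ifih1, Ifitm3, Igtp, Irgm1, Isg15, Oas1a, Oas3, Rsad2, Stat2 and Trim30a. The 12 others were Cmpk2, Herc6, Ifi35, Ifi44, Irf1, Irf7, Irf8, Irf9, Oasl1, Oasl2, Samd9l and Xaf1. The palindrome TTCNNNGAA, a search added after the data were seen, lay in 9 of the 28 (32.1%), against 9.55% of all genes: Bst2, Eif2ak2, Gbp7, Ifi35, Ifitm3, Igtp, Irf1, Irf8 and Oas1a. A match is a description of letters, not evidence of binding.

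The windows of 6 members are shown because their levels carry the results below: Isg15 and Oas3 as members with higher levels in BT WT epithelium, Bst2 as a member with little difference there, and Gbp2, Gbp7 and Igtp as GTPases that were lower in BT mutant than in BT WT macrophage-like cells. Each run is the 250 bases before the RefSeq start, read 5′ to 3′ on the gene's strand, with GAAA, 2 bases and GAAA (or the reverse complement, TTTC, 2 bases and TTTC) in capitals. Isg15 has 3 overlapping matches, Bst2 has 2 overlapping matches, and the other 4 windows have 1 each.

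Isg15, chr4:156200819-156201068, minus strand: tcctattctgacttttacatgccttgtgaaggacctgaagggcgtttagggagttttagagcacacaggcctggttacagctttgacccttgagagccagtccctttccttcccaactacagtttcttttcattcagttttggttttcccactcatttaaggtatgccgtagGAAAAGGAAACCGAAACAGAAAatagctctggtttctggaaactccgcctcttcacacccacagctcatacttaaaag
Oas3, chr5:120777660-120777909, minus strand: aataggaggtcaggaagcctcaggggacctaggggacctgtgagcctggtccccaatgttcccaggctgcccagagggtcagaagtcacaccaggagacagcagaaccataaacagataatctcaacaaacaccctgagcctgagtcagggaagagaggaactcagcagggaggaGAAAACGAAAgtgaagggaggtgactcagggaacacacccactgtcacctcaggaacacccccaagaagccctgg
Bst2, chr8:71537473-71537722, minus strand: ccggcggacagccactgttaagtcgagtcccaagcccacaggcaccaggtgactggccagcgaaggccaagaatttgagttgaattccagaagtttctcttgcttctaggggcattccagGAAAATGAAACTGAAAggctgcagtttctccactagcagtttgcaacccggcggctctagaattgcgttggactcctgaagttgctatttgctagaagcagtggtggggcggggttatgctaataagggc
Gbp2, chr3:142620413-142620662, plus strand: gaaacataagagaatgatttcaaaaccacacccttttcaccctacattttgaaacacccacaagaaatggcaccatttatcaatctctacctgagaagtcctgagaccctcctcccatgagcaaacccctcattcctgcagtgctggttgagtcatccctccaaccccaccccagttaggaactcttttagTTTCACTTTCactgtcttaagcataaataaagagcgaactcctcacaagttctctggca
Gbp7, chr3:142530086-142530335, plus strand: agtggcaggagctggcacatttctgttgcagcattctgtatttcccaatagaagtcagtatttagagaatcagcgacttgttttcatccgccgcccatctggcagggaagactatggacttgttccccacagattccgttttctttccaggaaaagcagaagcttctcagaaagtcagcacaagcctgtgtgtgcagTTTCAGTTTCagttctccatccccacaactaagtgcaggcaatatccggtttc
Igtp, chr11:58199306-58199555, plus strand: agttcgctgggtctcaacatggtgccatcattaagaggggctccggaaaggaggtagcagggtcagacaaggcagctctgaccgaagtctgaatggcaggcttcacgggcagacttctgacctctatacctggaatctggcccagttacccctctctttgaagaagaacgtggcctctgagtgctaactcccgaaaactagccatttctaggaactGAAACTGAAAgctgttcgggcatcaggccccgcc

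Barcodes with at least 300 genes and at most 25% mitochondrial UMIs were kept, which left 6138 of 8195 in the BT mutant library, 7070 of 8829 in BT WT and 3198 of 4425 in PBS, with median UMIs of 3355, 3845 and 3671.5 (a UMI tags 1 captured transcript). The libraries of each pair shared 8 to 19 barcodes. Clusters made without the members were named from marker genes, so a class is called like its type. Epithelial-like cells numbered 3844, 4491 and 1520 in BT mutant, BT WT and PBS, B-like cells 1206, 1431 and 1043, T-like cells 177, 437 and 204, macrophage-like cells 120, 78 and 62 and fibroblast-like cells 359, 214 and 143. The epithelial-like class was named from epithelial markers, so these do not check the colon label. Within that class the libraries did not share their cells evenly. Cluster c6, 375 deeply covered colonocyte-like cells, was of the PBS library alone and held 55.8% of that library's epithelial UMIs. Cluster c0, shallow colonocyte-like cells, had 66, 64 and 759 cells in BT mutant, BT WT and PBS. Cluster c1 had 1767, 283 and 18, cluster c18 had 364, 1178 and 10, cluster c19 had 103, 1537 and 1, cluster c27 had 429, 118 and 4, and cluster c28 had 477, 180 and 16. Clusters with at least 20 cells of each library were c0, goblet-like c9 (84, 766 and 112 cells), crypt proliferating-like c7 (269, 196 and 78), tuft-like c15 (115, 78 and 39) and c22 (43, 35 and 28), which has no subtype name and is led by the hormone genes Gcg and Pyy. Epithelial results are given in these 5 as well. The 10 leading genes of c7, the first being Aqp4, Wfdc2 and Hao2, held 0 of the epithelial or subtype markers. Its subtype name thus rests on marker levels alone.

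Summed over the 37 members, levels were highest in macrophage-like and fibroblast-like cells. Levels are CPM, the share of a class's UMIs in one library scaled to a total of 1000000, with exact Poisson 95% intervals that cover counting error only. Counts from the 3′ end do not scale with transcript length. In macrophage-like cells the members summed to 6771 CPM (6565 to 6983) in the BT mutant library, 4403 CPM (4229 to 4582) in the BT WT library and 2911 CPM (2755 to 3074) in the PBS library. In fibroblast-like cells they summed to 5118 CPM (5031 to 5206) in the BT mutant library, 4039 CPM (3946 to 4134) in the BT WT library and 2621 CPM (2539 to 2705) in the PBS library. Both classes were lowest in PBS and highest in BT mutant, with intervals that did not overlap. Epithelial-like cells had another order, with the BT WT library on top: 868 CPM (858 to 877) in the BT mutant library, 1251 CPM (1239 to 1263) in the BT WT library and 559 CPM (549 to 569.7) in the PBS library. B-like cells had 1107 CPM (1073 to 1142) in the BT mutant library, 993 CPM (963 to 1023) in the BT WT library and 846 CPM (818 to 876) in the PBS library, and T-like cells 1010.1 CPM (939 to 1085) in the BT mutant library, 1021 CPM (977 to 1067) in the BT WT library and 930.5 CPM (876 to 987) in the PBS library, where the 3 intervals overlapped.

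A pair of small interferon-induced membrane proteins carried much of the sum in macrophage-like and fibroblast-like cells. Ifitm3, which blocks virus entry at membranes, and Ifi27l2a, a small hydrophobic protein, held 61.3%, 50% and 42.8% of the macrophage-like sum in BT mutant, BT WT and PBS. In fibroblast-like cells they held 71.1%, 64.6% and 68.5%. Their share was smaller in B-like cells, at 20.1%, 17.4% and 15.9%, and in T-like cells, at 25.2%, 21.4% and 33.4%. Without these genes the macrophage-like sums were 2623 CPM in BT mutant, 2201 CPM in BT WT and 1664 CPM in PBS. The fibroblast-like sums were then 1479.7 CPM in BT mutant, 1429 CPM in BT WT and 827 CPM in PBS, so that most of the gap between the colonized libraries in that class came from these 2 genes.

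**Figure D1:**
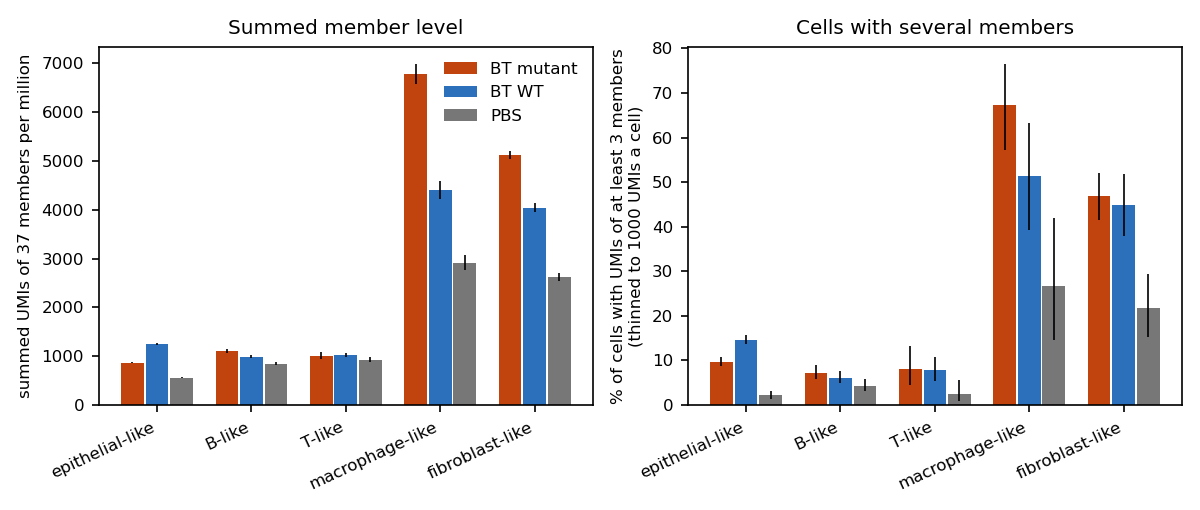
Left, summed CPM of the 37 members (y axis) in each class (x axis), by library, with exact Poisson 95% intervals. Right, percent of cells with UMIs of at least 3 members after each cell was thinned to 1000 UMIs, with exact Clopper-Pearson 95% intervals. Macrophage-like and fibroblast-like bars are highest with BT mutant and lowest with PBS, and the epithelial-like bars are highest with BT WT.

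Members differed in the class of their highest level. Of the 37, 14 had their highest level in macrophage-like cells in all 3 libraries: Irf9, Stat2, Oasl2, Oas2, Oas3, Rsad2, Bst2, Xaf1, Rtp4, Parp9, Parp14, Trim30a, Gbp7 and Eif2ak2. The minimum of 20 UMIs applied to a member's sum over the classes of a library, and 7 of these 14 had 20 macrophage-like UMIs in each library. Oas3 had 8, 4 and 4 macrophage-like UMIs in BT mutant, BT WT and PBS, and Parp9 in BT WT macrophage-like cells stood at 106% of its epithelial level. Bst2, the tetherin that holds budding virus at the cell surface, had 288 CPM with BT mutant, 159.7 CPM with BT WT and 274 CPM with PBS in macrophage-like cells and 5.99 CPM with BT mutant, 5.1 CPM with BT WT and 5.73 CPM with PBS in epithelial-like cells. Irf8, a transcription factor of myeloid and B cells, was highest in B-like cells in all 3 libraries, at 246 CPM with BT mutant, 214 CPM with BT WT and 193 CPM with PBS. Ifi27l2b, a paralog of Ifi27l2a, was the 1 member highest in epithelial-like cells in all 3, at 216 CPM with BT mutant, 208 CPM with BT WT and 177 CPM with PBS, against 12.1 CPM with BT mutant, 12.5 CPM with BT WT and 11.4 CPM with PBS in fibroblast-like cells. It was the most abundant epithelial member in each library and, as summed here, differed little between them. Over the alternatives given at the end, its epithelial ratio ranged over 1.08 to 1.2 in BT WT over PBS. The range was 0.463 to 1.1 in BT mutant over BT WT and 0.542 to 1.28 in BT mutant over PBS. Irgm1 and Cmpk2 were highest in fibroblast-like cells, and for the remaining 19 members the top class differed between libraries or had under 20 UMIs.

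In BT WT over PBS epithelium, members of each role were higher. A member is counted as higher or lower where the ratio of CPM was at least 1.5-fold with at least 20 UMIs over both libraries. The intervals beside folds are exact conditional binomial 95% intervals for counting error. Of 37 members, 30 were higher and 1 was lower in BT WT than in PBS, against 18.7% of all genes higher and 16% lower. The median log2 ratio was 1.60 over the tested members and 0.05 over all genes tested. All 31 intervals excluded 1. The 6 members past neither limit were Irf8, Bst2, Ifi27l2b, Ifitm3, Irgm1 and Eif2ak2. The counts by role were 5 of 5 OAS genes, 3 of 3 genes of ISG15 modification, 4 of 5 GTPases, 4 of 5 nucleic acid sensors, 4 of 5 transcription factors, 2 of 4 membrane and metabolic proteins, and 8 of 10 ADP-ribosylation and other effectors.

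The transcription factors were among the more abundant members. Irf1, an early interferon response factor, had 95.7 CPM with BT mutant, 136 CPM with BT WT and 44.6 CPM with PBS, so that BT WT was 3.05-fold higher (2.85 to 3.28). That ratio was 2.11 with at most 10% mitochondrial UMIs and ranged over 2.08 to 3.84 across the alternatives given at the end. The median mitochondrial share of epithelial-like cells was 16.9%, 16.7% and 10.1% in BT mutant, BT WT and PBS. Irf7, which amplifies type I interferon, had 82 CPM with BT mutant, 118 CPM with BT WT and 32.8 CPM with PBS, or 3.6-fold higher (3.32 to 3.91) in BT WT than in PBS. Stat2 and Irf9, both named above, were 2.5-fold higher (2.13 to 2.96) and 2.47-fold higher (2.13 to 2.88). The BT WT library was highest for these 4 genes, BT mutant was between, and the intervals of BT mutant and PBS overlapped for Stat2. Irf8 had 37.9 CPM with BT mutant, 30.9 CPM with BT WT and 37.2 CPM with PBS.

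The ISG15 system attaches a ubiquitin-like tag to proteins. Isg15, the tag itself (whose promoter is shown above with 3 overlapping matches), had 5.37 CPM with BT mutant, 13.3 CPM with BT WT and 3.54 CPM with PBS, 3.76-fold higher (2.93 to 4.87) in BT WT than in PBS. Herc6, the ligase for the tag in mouse, had 2.28 CPM with BT mutant, 6.86 CPM with BT WT and 1.58 CPM with PBS. Usp18, which removes it, had 0.281 CPM with BT mutant, 1.34 CPM with BT WT and 0.191 CPM with PBS, from 10, 45 and 4 UMIs. In each of these the BT WT level lay above the intervals of the other libraries.

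OAS proteins sense double-stranded RNA, and the enzymes among them make oligoadenylates that activate RNase L. Oasl2, an OAS-like member, had 6.27 CPM with BT mutant, 33.8 CPM with BT WT and 3.06 CPM with PBS, 11.1-fold higher (8.6 to 14.5) in BT WT than in PBS. Oas2 had 0.225 CPM with BT mutant, 4.8 CPM with BT WT and 0.525 CPM with PBS, 9.14-fold higher (4.97 to 18.7) in BT WT than in PBS. The BT mutant and PBS intervals of Oas2 overlapped, since they rested on 8 and 11 UMIs, and those of Oasl2 did not. Oas3 had 0.759 CPM with BT mutant, 5.52 CPM with BT WT and 0.764 CPM with PBS, with BT mutant and PBS about level. Oasl1 had 18 CPM with BT mutant, 37.3 CPM with BT WT and 10.2 CPM with PBS and Oas1a had 15.1 CPM with BT mutant, 17 CPM with BT WT and 8.12 CPM with PBS, so Oas1a set BT mutant nearer to BT WT than to PBS.

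Guanylate-binding and immunity-related GTPases take part in defence against microbes held in vacuoles inside cells. Gbp2 (ENSMUSG00000028270) had 5.01 CPM with BT mutant, 21.7 CPM with BT WT and 1.15 CPM with PBS, 18.9-fold higher (12.6 to 29.8) in BT WT than in PBS, the largest of the 37 ratios as summed here. The order of the largest ratios changed with the processing: with at most 10% mitochondrial UMIs Oas2 had 32.4, Oasl2 21.4, Zbp1 17.9 and Gbp2 14. Over the alternatives given at the end, Gbp2 ranged over 6.37 to 28.9, Oasl2 over 4.49 to 21.4, Oas2 over 3.53 to 32.4 and Zbp1 over 4.41 to 37.5. The 3 intervals of the Gbp2 level did not overlap. Gbp3 had 0.309 CPM with BT mutant, 2.89 CPM with BT WT and 0.382 CPM with PBS and Gbp7 had 2.08 CPM with BT mutant, 10.6 CPM with BT WT and 2.34 CPM with PBS, each with BT WT above overlapping BT mutant and PBS intervals. Igtp had 2.31 CPM with BT mutant, 4.83 CPM with BT WT and 2.01 CPM with PBS. Irgm1 stayed under the limit at 1.46-fold higher (1.24 to 1.72).

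Of the nucleic acid sensors, Zbp1, a sensor of Z-form nucleic acid that can trigger necroptosis, had 2.59 CPM with BT mutant, 24.5 CPM with BT WT and 1.77 CPM with PBS, 13.8-fold higher (9.96 to 19.8) in BT WT than in PBS. Ddx58, which encodes RIG-I, had 8.32 CPM with BT mutant, 17.2 CPM with BT WT and 3.77 CPM with PBS. Ifih1, a sensor of long double-stranded RNA, was the most abundant of the group at 48.6 CPM with BT mutant, 79.8 CPM with BT WT and 31.5 CPM with PBS. BT WT was highest for these 3 genes. Eif2ak2, the RNA-dependent kinase PKR, differed least, with 24.6 CPM with BT mutant, 29.4 CPM with BT WT and 26.3 CPM with PBS.

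Among the membrane and metabolic proteins, Rsad2 (viperin, which makes a chain-terminating nucleotide) had 6.38 CPM with BT mutant, 19.8 CPM with BT WT and 9.75 CPM with PBS. Cmpk2, a nucleotide kinase that lies beside Rsad2 in the genome, had 4.33 CPM with BT mutant, 8.29 CPM with BT WT and 3.68 CPM with PBS. For both, BT WT lay above the other libraries, and for Rsad2 BT mutant also lay below PBS. Ifitm3 had the order of the macrophage-like class instead, at 27 CPM with BT mutant, 18.4 CPM with BT WT and 15.6 CPM with PBS. Of its UMIs, 3 cells held 142 of 961, 151 of 616 and 69 of 326 in BT mutant, BT WT and PBS. The part of RNA from fibroblast-like cells, where Ifitm3 is abundant, in its epithelial level was not tested.

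Parp14, an ADP-ribosyl transferase, led the last group with 39.5 CPM with BT mutant, 85 CPM with BT WT and 13.1 CPM with PBS, 6.5-fold higher (5.74 to 7.38) in BT WT than in PBS. Samd9l, a restrictor of translation and the second most abundant epithelial member in BT WT, had 105 CPM with BT mutant, 143 CPM with BT WT and 46.9 CPM with PBS. Ifi44, a cytoplasmic protein of poorly known function, had 0.0562 CPM with BT mutant, 1.55 CPM with BT WT and 0.191 CPM with PBS, from 2, 52 and 4 UMIs. Ifi27l2a was the exception, with 10.8 CPM with BT mutant, 3.07 CPM with BT WT and 8.89 CPM with PBS, which made BT WT 2.89-fold lower (2.26 to 3.71) than PBS. Over the alternatives its ratio ranged over 0.134 to 0.757, and that of Samd9l over 1.73 to 3.75. As summed here, the paralogs Ifi27l2a and Ifi27l2b stood apart in this class, with BT WT lowest for Ifi27l2a and about level with BT mutant for Ifi27l2b. The 11 fibroblast markers in this class were also lowest with BT WT, at 87.9, 17.7 and 91 CPM in BT mutant, BT WT and PBS. The part of RNA from fibroblast-like cells, where Ifi27l2a is abundant, in its epithelial level was not tested. How reads shared between these copies, or between Gbp or Oas genes, were counted is not given in the sources used here.

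**Figure D2:**
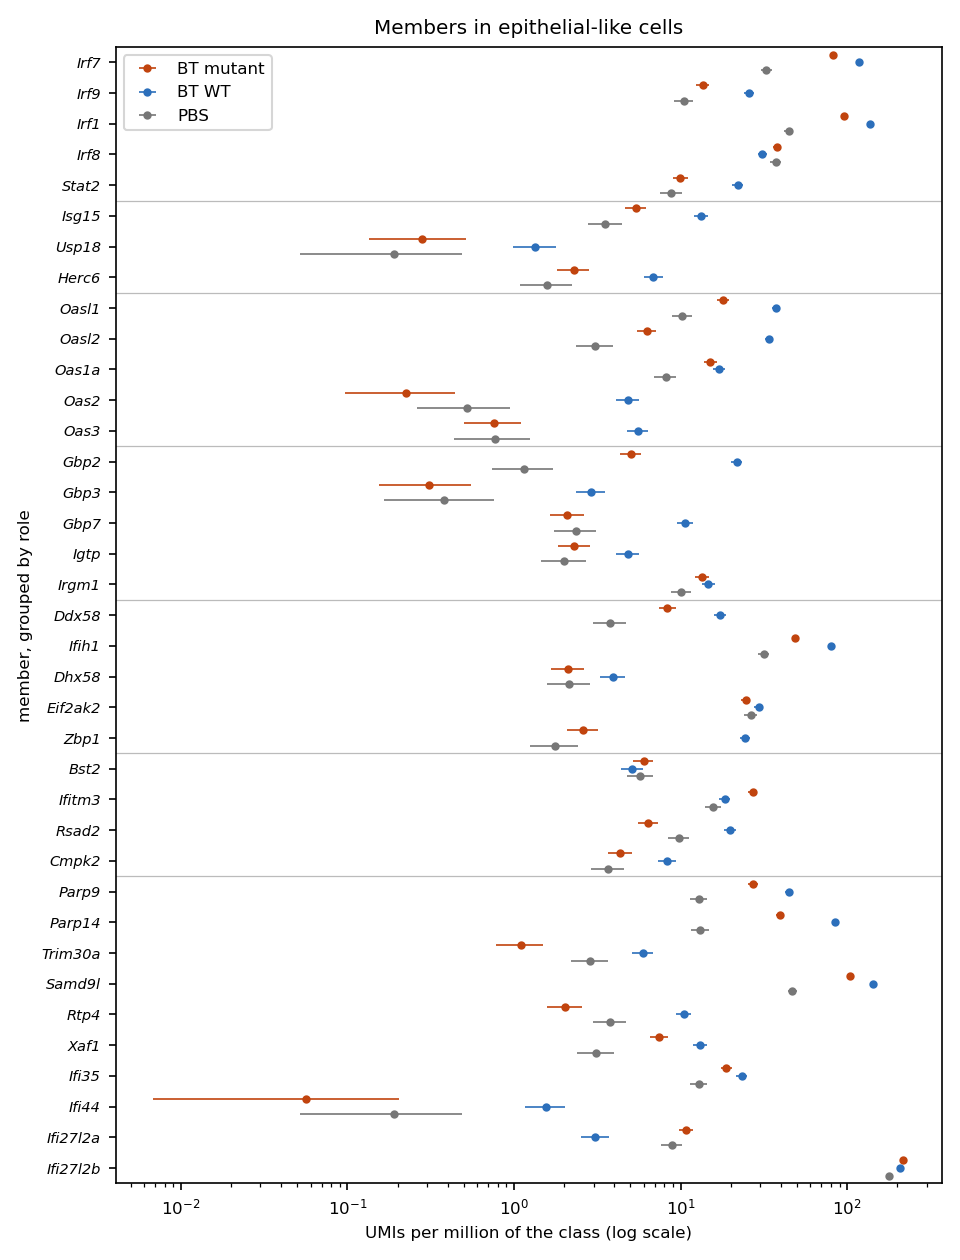
Level of each of the 37 members in epithelial-like cells (x axis, CPM on a log scale) by library, with exact Poisson 95% intervals and members grouped by role on the y axis. BT WT is right of PBS for most members, Gbp2 at 21.7 against 1.15 CPM, while Ifi27l2a shows BT WT on the left.

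BT mutant epithelium was lower than BT WT epithelium for most members. Of 37, 1 was higher and 25 were lower, against 11% of all genes higher and 15% lower, and the median log2 ratio was -1.05 over the tested members and -0.09 over all genes tested. The comparison shares the BT WT library with BT WT over PBS, so a high BT WT level enters both. The largest difference was that of Ifi44, 27.6-fold lower (7.26 to 234) in BT mutant from 2 UMIs against 52. Oas2 was 21.4-fold lower (10.6 to 50.3), Zbp1 was 9.46-fold lower (7.62 to 11.9) and Gbp3 was 9.36-fold lower (5.0 to 19.4) in BT mutant. Ifi27l2a was the 1 higher member, 3.5-fold higher (2.81 to 4.4) in BT mutant than in BT WT. The abundant members differed less: Irf1 was 1.42-fold lower (1.36 to 1.49), Irf7 1.44-fold lower (1.37 to 1.51) and Samd9l 1.36-fold lower (1.31 to 1.42) in BT mutant, short of the 1.5-fold limit. Over the alternatives the ratio ranged over 0.0229 to 0.0385 for Ifi44, 0.0163 to 0.107 for Oas2, 0.0846 to 0.365 for Zbp1, 0.052 to 0.876 for Gbp3 and 2.68 to 6.26 for Ifi27l2a.

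BT mutant over PBS epithelium split the members. Of 33 with at least 20 UMIs, 14 were higher and 3 were lower, against 9.87% of all genes higher and 14% lower, with a median log2 ratio of 0.53 over the tested members and 0.00 over all genes tested. Gbp2 was 4.37-fold higher (2.84 to 6.99), Parp14 3.01-fold higher (2.65 to 3.44), Irf7 2.5-fold higher (2.3 to 2.72) and Xaf1, a factor linked to cell death, 2.38-fold higher (1.81 to 3.18) in BT mutant than in PBS. Trim30a, a ubiquitin ligase family member, was lower, with 1.1 CPM with BT mutant, 5.91 CPM with BT WT and 2.87 CPM with PBS, or 2.61-fold lower (1.72 to 4.02) in BT mutant than in PBS. Rtp4, a receptor transporter protein, had 2.02 CPM with BT mutant, 10.4 CPM with BT WT and 3.77 CPM with PBS, 1.86-fold lower (1.34 to 2.6), and Rsad2 was 1.53-fold lower (1.26 to 1.85). Without cluster c6, the calls for Rtp4 and Rsad2 ended, at ratios of 0.891 and 1.04. Among cells with at most 10% mitochondrial UMIs, Irf7 and Irf1 came to 1.19 and 1.16, below the limit, and Parp14 and Samd9l to 1.84 and 1.61. Gbp2 ranged over 3.18 to 7.48 and Trim30a over 0.18 to 0.468 across the alternatives.

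Within the 5 clusters that each library filled, the BT WT over PBS counts differed in size. In goblet-like cluster c9, the mucus-making cells, 24 of 33 tested members were higher and 0 were lower in BT WT than in PBS, against 23.4% and 11.6% of all genes. The folds there were smaller: Gbp2 had a ratio of 6.37, Oasl2 of 4.49, Zbp1 of 4.41 and Oas2 of 3.53, while Ifi27l2a at 0.757 was no longer past the limit. In crypt proliferating-like cluster c7, 15 of 29 were higher and 2 lower, against 7.58% and 9.33% of all genes. In c22, 10 of 18 members were higher and 2 lower, against 9.08% and 10.4% of all genes. In tuft-like c15, 4 of 13 members were higher and 1 lower, against 11.8% and 15.3% of all genes. In shallow c0, 4 of 10 members were higher and 2 lower, against 23.6% and 24.8% of all genes, so that the count there was nearer to the share of all genes. Without cluster c6, 30 members were higher and 4 lower in BT WT than in PBS, with Zbp1 at 7.8 and Oas2 at 4.44.

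BT mutant over BT WT had lower members within most clusters, in smaller shares than over the whole class, and few or none in c22 and c0. In c9, 16 of 33 were lower and 3 higher, against 23.9% of all genes lower and 10.5% higher. In c7, 11 of 31 were lower and 2 higher, against 10% and 8.45%. In c15, 0 of 17 members were higher and 5 lower, against 11.4% and 13.9% of all genes. In c22, 1 of 17 members was higher and 3 lower, against 8.59% and 12% of all genes. Colonocyte-like clusters with at least 20 cells of both colonized libraries were c0, c19, c18, c1, c28 and c27. In shallow c0, where 5 members had 20 UMIs, 1 of 5 members was higher and 0 lower, against 22% and 14% of all genes. The remaining 5 clusters gave, in that order, 20 of 34, 15 of 31, 9 of 28, 16 of 34 and 11 of 28 lower, against 20.6%, 14.9%, 16.4%, 15.1% and 10.4% of all genes, and 2 of 34, 2 of 31, 2 of 28, 2 of 34 and 3 of 28 higher, against 10.2%, 8.28%, 9.75%, 7.79% and 9.8%. Gbp3 in c9 alone had a ratio of 0.876, no longer lower, and Zbp1 there had 0.365. For BT mutant over PBS, where fewer members had 20 UMIs, c9 gave the following: 6 of 15 members were higher and 2 lower, against 16.3% and 20.4% of all genes. In c7, 7 of 23 members were higher and 2 lower, against 7.87% and 11.7% of all genes. In c15, 3 of 12 members were higher and 4 lower, against 13.1% and 20.3% of all genes. In c22, 6 of 15 members were higher and 0 lower, against 7.91% and 12.5% of all genes. In c0, 11 of 12 members were higher and 0 lower, against 25.9% and 21.3% of all genes.

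By epithelial subtype, colonocyte-like cells summed to 969 CPM in BT mutant, 1442 CPM in BT WT and 531 CPM in PBS over the 37 members, and goblet-like cells to 1064 CPM in BT mutant, 1672 CPM in BT WT and 836 CPM in PBS. Crypt proliferating-like cells, all of cluster c7, differed less, at 611 CPM in BT mutant, 668 CPM in BT WT and 560.3 CPM in PBS. No crypt marker was among the leading genes of that cluster. Tuft-like cells, the chemosensory type, had 870.5 CPM in BT mutant, 1390.4 CPM in BT WT and 1055 CPM in PBS, so that here BT mutant lay below PBS. BT WT was highest in these 4 subtypes. Enteroendocrine-like cells numbered 8, 16 and 7 in BT mutant, BT WT and PBS and had 864 CPM in BT mutant, 616 CPM in BT WT and 647 CPM in PBS. The makeup of the class moved with the libraries too: its 15 goblet markers summed to 2759, 18997 and 11012 CPM in BT mutant, BT WT and PBS, and the nuclear RNAs Malat1 and Neat1 to 30995, 53442 and 43042 CPM. Their part in the member levels was not tested beyond the within-cluster values above.

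**Figure D3:**
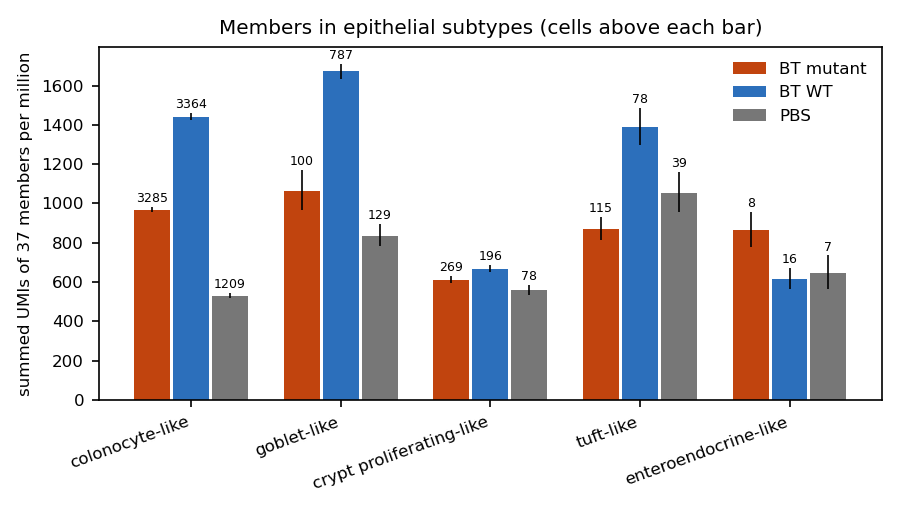
Summed CPM of the 37 members (y axis) in each epithelial subtype (x axis) by library, with exact Poisson 95% intervals and the number of cells above each bar. BT WT is highest in colonocyte-like, goblet-like, crypt proliferating-like and tuft-like cells, and enteroendocrine-like bars rest on 8, 16 and 7 cells.

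Macrophage-like cells, with 120, 78 and 62 cells in BT mutant, BT WT and PBS, did not share the epithelial order. Of 29 tested members, 14 were higher and 1 was lower in BT WT than in PBS, against 14.6% and 14.5% of all genes, with a median log2 ratio of 0.33 over the tested members and -0.02 over all genes tested. The intervals of 9 of the 14 excluded 1, and that of the lower member did too. Of 31 tested members, 9 were higher and 4 lower in BT mutant than in BT WT, against 12.6% and 16.4%, and the median was 0.27 over the tested members and -0.03 over all genes tested. Against PBS, 19 of 30 were higher and 2 lower in BT mutant, against 12.7% and 16.6%, and the median was 0.89 over the tested members and -0.03 over all genes tested. Median UMIs per cell were 5129.5, 6954 and 3339 in BT mutant, BT WT and PBS.

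The members that were higher with BT mutant than with BT WT came from 5 roles. Ifi27l2a, the most abundant, had 2336 CPM with BT mutant, 936 CPM with BT WT and 424 CPM with PBS, with BT mutant 2.49-fold higher (2.25 to 2.76) than BT WT and 5.51-fold higher (4.73 to 6.45) than PBS. Its 3 intervals did not overlap. Irf7 had 132 CPM with BT mutant, 59.9 CPM with BT WT and 33.6 CPM with PBS, 2.2-fold higher (1.45 to 3.41) in BT mutant than in BT WT. Xaf1 had 83.3 CPM with BT mutant, 34.5 CPM with BT WT and 15.7 CPM with PBS, 2.42-fold higher (1.4 to 4.34) in BT mutant than in BT WT. Herc6, the ISG15 ligase, had 45 CPM with BT mutant, 16.3 CPM with BT WT and 20.2 CPM with PBS, 2.75-fold higher (1.26 to 6.66) in BT mutant than in BT WT, from 27 and 9 UMIs. BT WT and PBS overlapped for Irf7 and Xaf1, so that the BT mutant library stood alone on the high side, while for Herc6 the BT mutant interval overlapped both others. In BT mutant 3 cells held 22 of the 50 Xaf1 UMIs, and in PBS 3 cells held 12 of 15 Irf7 and 5 of 7 Xaf1 UMIs. Across the alternatives the BT mutant over BT WT ratio ranged over 1.66 to 2.87 for Irf7 and 2.06 to 2.46 for Xaf1. The Herc6 ratio ranged over 1.71 to 2.8 across the alternatives. Oasl2, Oas2, Bst2 and Rtp4 were also higher with intervals that excluded 1, at 1.99-fold higher, 1.79-fold higher, 1.8-fold higher and 1.73-fold higher.

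The GTPases ran the other way. Gbp2 had 18.3 CPM with BT mutant, 102 CPM with BT WT and 26.9 CPM with PBS, 5.55-fold lower (2.87 to 11.7) in BT mutant than in BT WT. Gbp3 had 16.7 CPM with BT mutant, 49 CPM with BT WT and 49.3 CPM with PBS, 2.94-fold lower (1.38 to 6.81) in BT mutant than in BT WT. For Gbp2 the BT WT library stood alone on the high side, while for Gbp3 BT mutant stood alone on the low side. Gbp7 had 93.3 CPM with BT mutant, 159.7 CPM with BT WT and 144 CPM with PBS, 1.71-fold lower (1.21 to 2.44), and Igtp had 18.3 CPM with BT mutant, 54.4 CPM with BT WT and 13.5 CPM with PBS, 2.97-fold lower (1.45 to 6.57) in BT mutant than in BT WT. The fifth GTPase, Irgm1, had 69.98 CPM with BT mutant, 59.9 CPM with BT WT and 38.1 CPM with PBS and was past neither limit in BT mutant over BT WT. Across the alternatives the BT mutant over BT WT ratio ranged over 0.139 to 0.302 for Gbp2 and 0.181 to 0.597 for Gbp3. In the BT WT library, 3 cells held 19 of the 30 Igtp UMIs and 20 of the 56 Gbp2 UMIs. Gbp2, Gbp3, Gbp7 and Igtp hold the spaced GAAA pair in their promoter windows, as Isg15 and Bst2 do, which were not lower.

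In BT WT over PBS, Igtp was 4.05-fold higher (1.66 to 11.9), Gbp2 3.78-fold higher (2.0 to 7.74), Zbp1 3.64-fold higher (1.2 to 14.8) and Rsad2 2.83-fold higher (1.11 to 8.58) in BT WT. These folds rest on 6, 12, 4 and 6 UMIs in the PBS library. Across the alternatives Igtp ranged over 2.58 to 8.62, Gbp2 over 3.48 to 11.7 and Rsad2 over 1.35 to 3.87, with Rsad2 below the limit when each cell weighed the same. Bst2 was the lower member, with 288 CPM with BT mutant, 159.7 CPM with BT WT and 274 CPM with PBS, or 1.71-fold lower (1.29 to 2.28) in BT WT than in PBS. In PBS 3 cells held 70 of the 122 Bst2 UMIs, and with each cell weighing the same the ratio was 1.11, in cluster c14 alone 0.955. Irf1 had 395 CPM with BT mutant, 361 CPM with BT WT and 184 CPM with PBS, level between the colonized libraries and 1.96-fold higher (1.51 to 2.57) in BT WT than in PBS, or a ratio of 1.43 with each cell weighing the same. Ifitm3 in BT WT over PBS ranged over 1.42 to 3.1 across the alternatives and Ifi27l2a over 0.876 to 3.56.

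In BT mutant over PBS, Ddx58 had the largest fold, 8.17-fold higher (2.01 to 71.7) in BT mutant, but from 22 against 2 UMIs, and 1.71 with each cell weighing the same. Xaf1 was 5.31-fold higher (2.39 to 13.9) and Rtp4 4.21-fold higher (2.05 to 9.73) in BT mutant. These rest on 7 and 9 UMIs in PBS, of which 3 cells held 5 and 8. Ifitm3 had 1813 CPM with BT mutant, 1265 CPM with BT WT and 823 CPM with PBS, 2.2-fold higher (1.95 to 2.49) in BT mutant than in PBS. Gbp3 and Gbp7 were lower, 2.96-fold lower (1.35 to 7.01) and 1.54-fold lower (1.06 to 2.24) in BT mutant. Across the alternatives Xaf1 ranged over 4.43 to 10.2, Rtp4 over 4.14 to 8.81, Ifitm3 over 2.15 to 4.09, Ifi27l2a over 2.01 to 7.84, Gbp3 over 0.295 to 1.37 and Gbp7 over 0.65 to 1.29, and the last 2 lost the call in some of them. In cluster c14 alone, which holds 106 of 120, 55 of 78 and 56 of 62 macrophage-like cells of BT mutant, BT WT and PBS, 19 of 26 were higher and 0 lower in BT mutant than in PBS. There, 8 of 30 were higher and 4 lower in BT mutant than in BT WT. In BT WT over PBS there, 13 of 26 members were higher and 0 lower, against 15.4% and 14.4% of all genes. Of all genes in c14, 15.2% and 13.6% were higher and 16.3% and 17.4% lower in BT mutant over PBS and BT mutant over BT WT.

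Other cell types' markers differed between the libraries within this class. The 7 neutrophil markers, all detected, summed to 378, 958 and 280.4 CPM in BT mutant, BT WT and PBS, the 9 dendritic cell markers to 1028, 606 and 1133 CPM, and the 12 epithelial markers to 1065, 1583 and 1622 CPM. Of the 12 T cell markers 4, 5 and 7 were detected, summing to 39.99, 34.5 and 49.3 CPM, and Cd3e, Cd3g, Cd8a and Cd5 were at 0 in each library. The part of the neutrophil and dendritic cells in the member ratios was not tested beyond the values of cluster c14. A gate on each cell's own marker UMIs reversed 4 of the ratios above. In it, 14 cells of fat clusters held 53.9% of the gated PBS UMIs and 819 of 1067 Ifi27l2a UMIs. The gate gave ratios of 0.876 for Ifi27l2a and 1.51 for Bst2 in BT WT over PBS. It gave 1.37 for Gbp3 and 1.29 for Gbp7 in BT mutant over PBS.

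**Figure D4:**
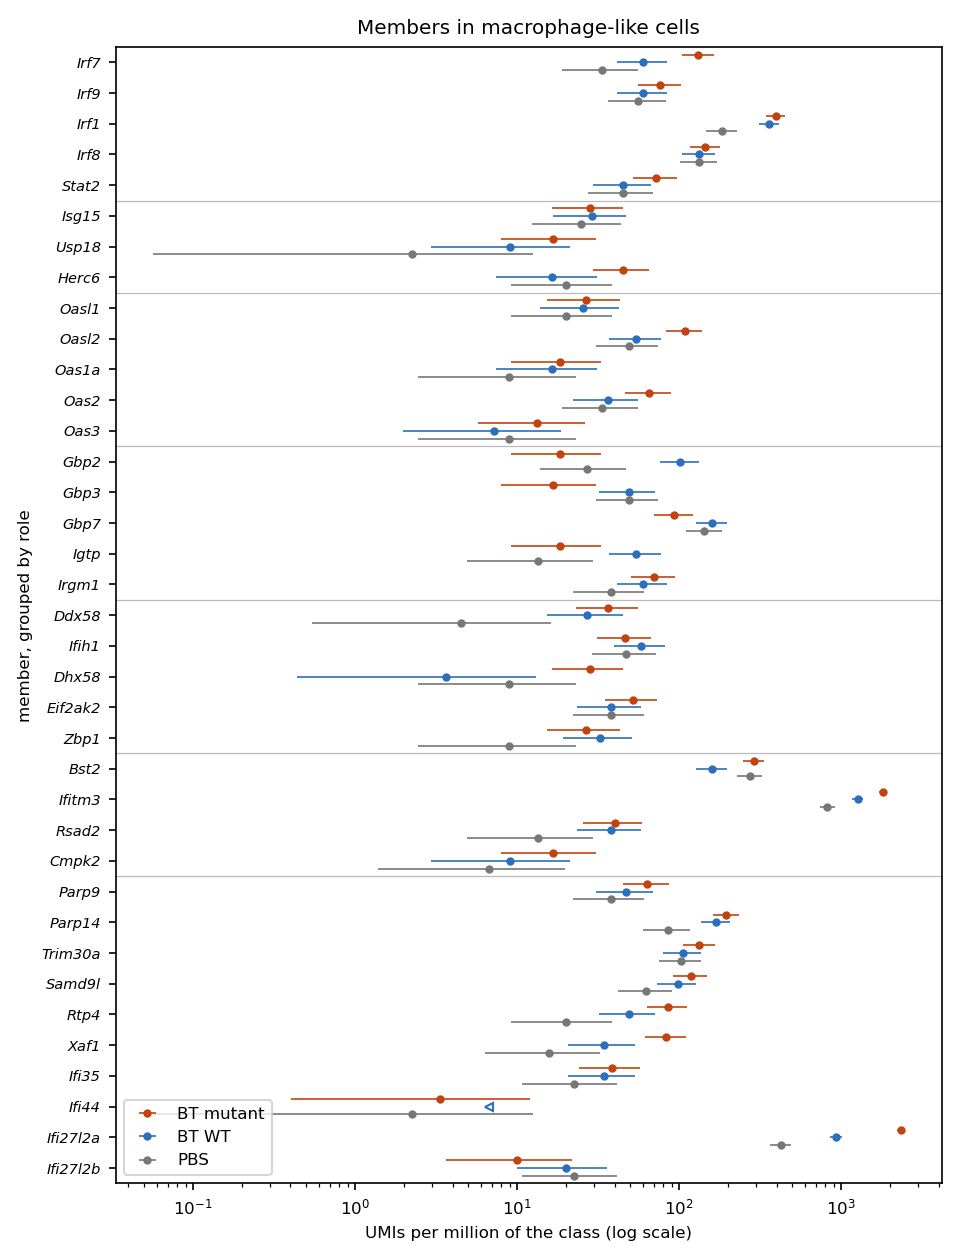
Level of each member in macrophage-like cells (x axis, CPM on a log scale) by library, with exact Poisson 95% intervals, an open arrow at the upper limit for members with 0 UMIs, and members grouped by role on the y axis. BT mutant is right of BT WT for Ifi27l2a, Irf7 and Xaf1 and left of it for Gbp2, Gbp3, Gbp7 and Igtp.

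In fibroblast-like cells most members were higher in either colonized library than in PBS, and few were past 1.5-fold between the colonized libraries. Of 31 tested members, 20 were higher and 0 lower in BT WT than in PBS, against 11.5% and 11.3% of all genes, and the median log2 ratio was 0.86 over the tested members and -0.01 over all genes tested. Of 32, 25 were higher and 0 lower in BT mutant than in PBS, against 9.73% and 10.3%, with a median of 0.88 over the tested members and 0.00 over all genes tested. Between the colonized libraries, 2 of 32 were higher and 2 lower in BT mutant than in BT WT, against 8.93% and 9.35%, with a median of 0.06 over the tested members and -0.01 over all genes tested. The comparisons over PBS share that library. Cluster c8, which holds most of the class in each library, gave 20 of 30 higher and 0 lower in BT WT over PBS, and 28 of 32 higher and 0 lower in BT mutant over PBS. Against these stand 12.1% of all genes higher and 12.4% lower in BT WT over PBS, and 10.5% higher and 10.3% lower in BT mutant over PBS. In c8 between BT mutant and BT WT, 3 of 32 members were higher and 2 lower, against 9.66% and 8.74% of all genes.

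Each of the 7 roles had members that were higher in both colonized libraries than in PBS. Isg15 had 59 CPM with BT mutant, 54 CPM with BT WT and 19.5 CPM with PBS, with BT WT 2.77-fold higher (1.81 to 4.35) and BT mutant 3.02-fold higher (2.02 to 4.67) than PBS. Usp18, its protease, had 10.2 CPM with BT mutant, 9.67 CPM with BT WT and 2.02 CPM with PBS, 4.79-fold higher (1.38 to 25.5) and 5.03-fold higher (1.54 to 26) than PBS, from 3 UMIs in PBS. Rtp4 had 33.2 CPM with BT mutant, 30.1 CPM with BT WT and 7.41 CPM with PBS, 4.07-fold higher (2.1 to 8.64) in BT WT and 4.48-fold higher (2.38 to 9.32) in BT mutant than in PBS. For these 3 genes the intervals of the colonized libraries overlapped. Rsad2 had 12.5 CPM with BT mutant, 20.5 CPM with BT WT and 3.37 CPM with PBS, 6.08-fold higher (2.38 to 19.9) in BT WT and 3.71-fold higher (1.44 to 12.2) in BT mutant than in PBS, where it had 5 UMIs. Among cells with at most 10% mitochondrial UMIs its ratios were 27 and 17.9. Across the alternatives Rtp4 ranged over 2.02 to 4.45 in BT WT over PBS and 2.46 to 4.72 in BT mutant over PBS, and Rsad2 over 6.08 to 27 and 3.71 to 17.9. Zbp1 had 13.3 CPM with BT mutant, 19.3 CPM with BT WT and 5.39 CPM with PBS, 3.59-fold higher (1.63 to 8.98) in BT WT than in PBS.

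Of the GTPases that were lower with BT mutant in macrophage-like cells, 3 are given here. Gbp2 had 68 CPM with BT mutant, 75.1 CPM with BT WT and 38.4 CPM with PBS in fibroblast-like cells, a BT mutant over BT WT ratio of 0.906 (0.718 to 1.14). Gbp7 had 52.7 CPM with BT mutant, 67.7 CPM with BT WT and 32.3 CPM with PBS, a ratio of 0.779 (0.605 to 1.01), and Igtp 21.1 CPM with BT mutant, 21.6 CPM with BT WT and 11.4 CPM with PBS, a ratio of 0.976 (0.633 to 1.52). These 3 intervals include 1. That of Gbp2 excludes the 5.55-fold lower level of macrophage-like cells, while those of Gbp7 and Igtp each overlap the macrophage-like interval of the same gene. The difference between the classes was not tested.

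Ifi27l2a had 2016 CPM with BT mutant, 1313 CPM with BT WT and 841 CPM with PBS, with 3 intervals that did not overlap and BT mutant 1.53-fold higher (1.46 to 1.61) than BT WT. Ifitm3 had 1622 CPM with BT mutant, 1296 CPM with BT WT and 953 CPM with PBS, also in that order. Dhx58, a regulator of RIG-I sensing, was 4.12-fold higher (1.2 to 21.8) in BT mutant than in BT WT, from 18 against 3 UMIs, and 3.48-fold higher (1.02 to 18.5) than in PBS. Irf8 was lower in BT mutant, with 12.5 CPM with BT mutant, 21 CPM with BT WT and 15.5 CPM with PBS, or 1.68-fold lower (1.02 to 2.79). Across the alternatives the BT mutant over BT WT ratio ranged over 1.41 to 1.55 for Ifi27l2a, 2.29 to 6.46 for Dhx58 and 0.461 to 0.773 for Irf8, so that Ifi27l2a and Irf8 lost the call in some, and Dhx58 over PBS ranged over 2.19 to 3.48. Stat2 had 32.4 CPM with BT mutant, 31.9 CPM with BT WT and 31 CPM with PBS, about level in all 3. Irf1, the most abundant transcription factor, had 278 CPM with BT mutant, 278 CPM with BT WT and 189 CPM with PBS.

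In B-like cells most members were past neither limit in each comparison. The makeup of the class differed between libraries. Cluster c3 had 342, 955 and 934 cells in BT mutant, BT WT and PBS. Cluster c5, led by Igkc, Jchain and Igha, had 864, 476 and 109. The part of this makeup in the ratios was not tested beyond the values in c3 and c5 below. Of 29 tested members, 7 were higher and 2 lower in BT WT than in PBS, against 4.19% and 14.3% of all genes, with a median log2 ratio of 0.22 over the tested members and -0.17 over all genes tested. Of 30 tested members, 2 were higher and 4 lower in BT mutant than in BT WT, against 10.6% and 8.32%, with a median of 0.07 over the tested members and 0.04 over all genes tested. Of 29, 6 were higher and 2 lower in BT mutant than in PBS, against 7.54% and 18%, with a median of 0.33 over the tested members and -0.13 over all genes tested. In c3, 6 of 29 members were higher and 2 lower in BT WT over PBS, against 4.2% and 14.4% of all genes. In BT mutant over BT WT there, 5 of 27 were higher and 7 lower, against 10.3% and 12%. In BT mutant over PBS there, 5 of 26 were higher and 2 lower, against 7.91% and 21.4%. In c5, 5 of 15 members were higher and 0 lower in BT WT over PBS, against 11.1% and 21.3% of all genes. In BT mutant over BT WT there, 4 of 25 were higher and 3 lower, against 14.3% and 7.29%. In BT mutant over PBS there, 8 of 21 were higher and 0 lower, against 15.7% and 20%. Over the whole class, Oasl2 had 1.67 CPM with BT mutant, 5.22 CPM with BT WT and 1.56 CPM with PBS, 3.35-fold higher (1.32 to 10.1) in BT WT than in PBS and 3.12-fold lower (1.23 to 9.4) in BT mutant than in BT WT. Isg15 had 1.67 CPM with BT mutant, 6.17 CPM with BT WT and 2.86 CPM with PBS and Oasl1 3.07 CPM with BT mutant, 8.54 CPM with BT WT and 4.67 CPM with PBS, so that BT WT was highest for these 3 members, as in the epithelium, and their BT mutant and PBS intervals overlapped. With the gate on each cell's markers Isg15 in BT WT over PBS came to 1.31, below the limit. Epithelial markers in B-like cells stood at 5.64%, 5.55% and 7.37% of their epithelial level in BT mutant, BT WT and PBS, and these 3 members were above that share of their own epithelial level. The part of RNA from epithelial-like cells in the B-like levels of these members was not tested.

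Ifih1 in B-like cells was 2.28-fold higher (1.06 to 5.33) in BT WT than in PBS, at 3.63 CPM with BT mutant, 5.93 CPM with BT WT and 2.6 CPM with PBS. These levels were 7.46%, 7.43% and 8.25% of its epithelial level, near the share of the epithelial markers. The part of RNA from epithelial-like cells in them was not tested. Irgm1 was lower in both colonized libraries, with 7.26 CPM with BT mutant, 6.64 CPM with BT WT and 13.8 CPM with PBS, or 2.07-fold lower (1.29 to 3.4) in BT WT and 1.9-fold lower (1.17 to 3.16) in BT mutant than in PBS. Its BT mutant and BT WT intervals overlapped. Oas1a had 4.47 CPM with BT mutant, 2.85 CPM with BT WT and 1.56 CPM with PBS, 2.87-fold higher (1.07 to 8.94) in BT mutant than in PBS, and Xaf1 was 2.1-fold higher (1.25 to 3.64), or 1.03 with classes taken from a gate on each cell's markers. Ifitm3 was 2.66-fold higher (1.52 to 4.84) in BT mutant than in BT WT, at 12 CPM with BT mutant, 4.51 CPM with BT WT and 8.05 CPM with PBS. The 11 fibroblast markers in B-like cells had the same order, at 48.8, 20.4 and 33 CPM in BT mutant, BT WT and PBS. The part of RNA from fibroblast-like cells, where Ifitm3 is abundant, was not tested. The abundant members were Irf8, Ifi27l2a at 210.1 CPM with BT mutant, 168 CPM with BT WT and 127 CPM with PBS and Samd9l at 171 CPM with BT mutant, 140.0 CPM with BT WT and 120.2 CPM with PBS, each highest with BT mutant by less than 1.5-fold over BT WT. Over PBS, Ifi27l2a was 1.66-fold higher (1.48 to 1.86) and Zbp1 1.73-fold higher (1.0 to 3.05) in BT mutant.

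T-like cells had the smallest sums of counts, 758, 1977 and 1093 member UMIs in BT mutant, BT WT and PBS. Of 24 tested members, 6 were higher and 1 lower in BT WT than in PBS, against 8.96% and 14.7% of all genes, with a median log2 ratio of 0.37 over the tested members and -0.14 over all genes tested. Of 25, 2 were higher and 5 lower in BT mutant than in BT WT, against 14.9% and 11.5%, with a median of -0.03 over the tested members and 0.06 over all genes tested. Of 21, 8 were higher and 2 lower in BT mutant than in PBS, against 12.1% and 17.2%, with a median of 0.34 over the tested members and -0.07 over all genes tested. Of the 8 higher members, 2 had intervals that excluded 1. Gbp2 had 9.33 CPM with BT mutant, 21.7 CPM with BT WT and 6.81 CPM with PBS, 3.19-fold higher (1.48 to 7.86) in BT WT than in PBS and 2.33-fold lower (1.04 to 6.14) in BT mutant than in BT WT. BT WT was highest for Gbp2 in each of the 5 classes. In B-like and fibroblast-like cells it was less than 1.5-fold above BT mutant.

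Igtp in T-like cells had 36 CPM with BT mutant, 33.1 CPM with BT WT and 13.6 CPM with PBS, with BT WT 2.43-fold higher (1.39 to 4.5) and BT mutant 2.64-fold higher (1.37 to 5.25) than PBS. The colonized libraries overlapped for Igtp, unlike in macrophage-like cells. Ifih1 had 6.66 CPM with BT mutant, 18.1 CPM with BT WT and 5.11 CPM with PBS, 3.54-fold higher (1.47 to 10.3) in BT WT than in PBS. Isg15 was lower in BT WT, with 17.3 CPM with BT mutant, 17.6 CPM with BT WT and 29.8 CPM with PBS, or 1.7-fold lower (1.03 to 2.8) than in PBS. Ifi27l2b was 2.67-fold higher (1.32 to 5.95) in BT WT than in PBS, a gene for which the T-like level in BT mutant and PBS was at or below the share of epithelial markers there. The part of RNA from epithelial-like cells in its T-like level was not tested. Ifi27l2a, the most abundant member of the class, had 243 CPM with BT mutant, 215 CPM with BT WT and 306 CPM with PBS, the 1 class in which PBS was highest for it. Its ratio over PBS was past neither limit in BT WT or in BT mutant. Of its UMIs, 3 cells held 43 of 182, 44 of 417 and 108 of 359 in BT mutant, BT WT and PBS. Irf1 had 83.9 CPM with BT mutant, 128 CPM with BT WT and 98.8 CPM with PBS, 1.53-fold lower (1.15 to 2.05) in BT mutant than in BT WT, and Ifih1 was 2.71-fold lower (1.06 to 8.87). Samd9l had 99.9 CPM with BT mutant, 77 CPM with BT WT and 63.8 CPM with PBS, 1.57-fold higher (1.12 to 2.19) in BT mutant than in PBS. Across the alternatives Ifi27l2b in BT WT over PBS ranged over 1.46 to 2.93, Gbp2 in BT WT over PBS over 2.88 to 5.04 and Samd9l in BT mutant over PBS over 1.37 to 1.68, with Ifi27l2b and Samd9l below the limit in some.

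**Figure D5:**
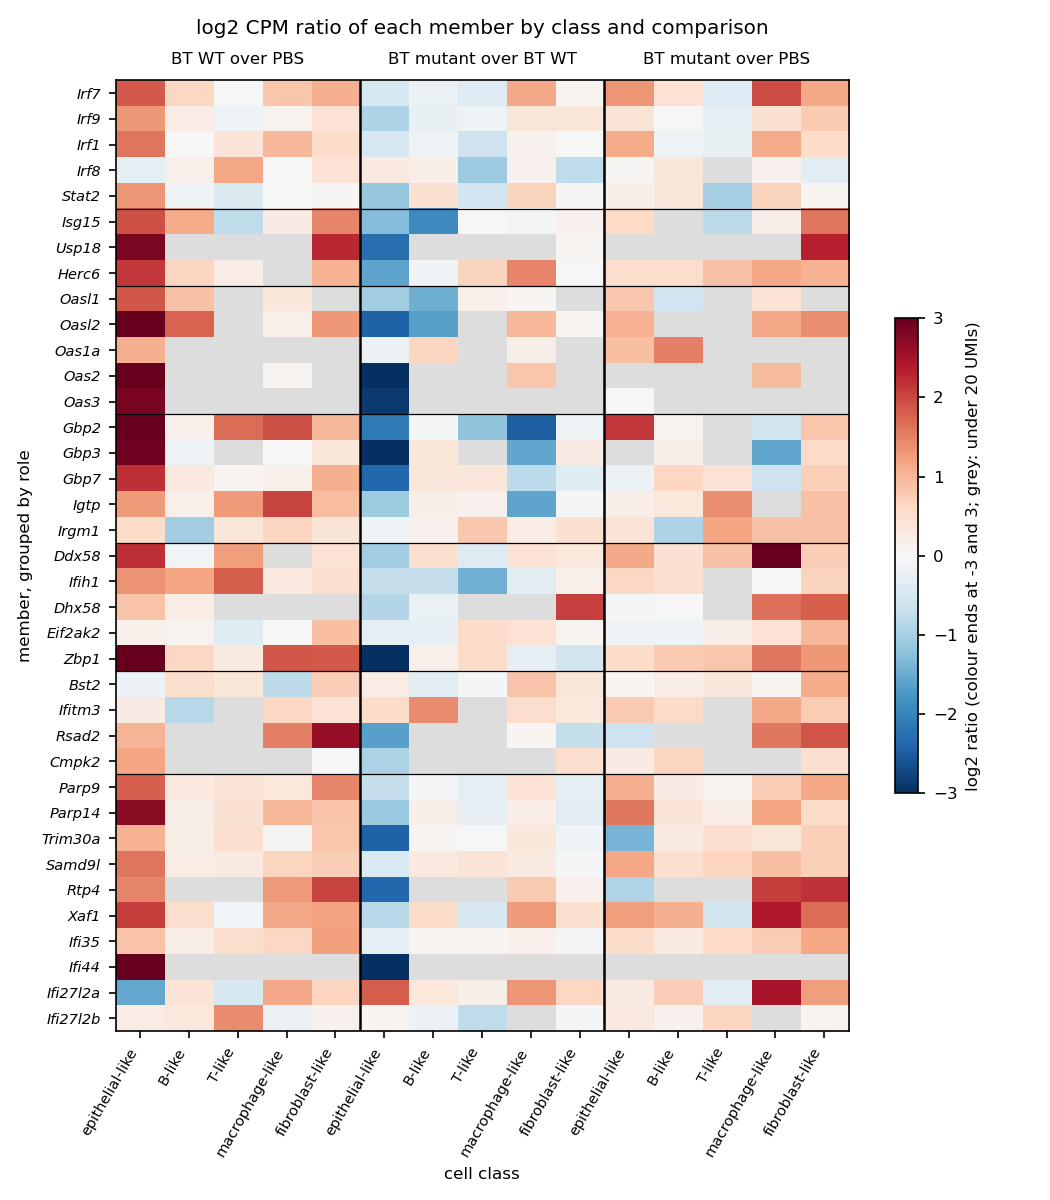
Log2 ratio of CPM (colour, red higher and blue lower in the first-named library, ends at -3 and 3) for each member (rows, grouped by role) in each class (columns), in 3 blocks. The first is BT WT over PBS, the second BT mutant over BT WT and the third BT mutant over PBS. Grey cells had under 20 UMIs over both libraries. The epithelial-like column is red for most members in the first block and blue in the second, and the 4 GTPases Gbp2, Gbp3, Gbp7 and Igtp are blue in the macrophage-like column of the second.

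Members were also counted per cell. Each cell was thinned to 1000 UMIs, which left out 241, 221 and 494 shallower epithelial-like cells of BT mutant, BT WT and PBS, 22, 6 and 17 macrophage-like cells and 2, 4 and 0 fibroblast-like cells. UMIs of at least 3 members were found in 9.66% in BT mutant (8.71 to 10.7), 14.7% in BT WT (13.6 to 15.8) and 2.14% in PBS (1.35 to 3.23) of epithelial-like cells, with exact Clopper-Pearson 95% intervals. Among macrophage-like cells the shares were 67.3% in BT mutant (57.1 to 76.5), 51.4% in BT WT (39.3 to 63.4) and 26.7% in PBS (14.6 to 41.9). Among fibroblast-like cells they were 46.8% in BT mutant (41.5 to 52.1), 44.8% in BT WT (37.9 to 51.8) and 21.7% in PBS (15.2 to 29.3). BT WT was highest in the epithelium and the colonized libraries overlapped in fibroblast-like and macrophage-like cells, where PBS was lowest and, in the macrophage-like class, overlapped with BT WT. Unthinned shares in BT mutant, BT WT and PBS were 66.2%, 76.4% and 40.4% in epithelial-like, 82.5%, 92.3% and 51.6% in macrophage-like and 90.8%, 93.9% and 95.1% in fibroblast-like cells. B-like cells had 7.28% in BT mutant (5.86 to 8.93), 6.15% in BT WT (4.94 to 7.55) and 4.36% in PBS (3.2 to 5.79), against 43%, 36.4% and 41.6% unthinned. T-like cells had 8.09% in BT mutant (4.49 to 13.2), 7.85% in BT WT (5.5 to 10.8) and 2.49% in PBS (0.813 to 5.71), against 58.8%, 56.8% and 56.9% unthinned. Epithelial markers in the other classes stood at 4.68% to 10.4% of their epithelial level, and the part of RNA from other cells in these shares was not tested.

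The genes above the members in the pathway were measured from lists of ligands, receptors, kinases with feedback genes, and nucleic acid sensing. Of 15 interferon ligand genes, 0 reached 20 UMIs in epithelial-like, B-like, macrophage-like or fibroblast-like cells in any comparison. In T-like cells Ifng did, with 28, 16.5 and 22.1 CPM in the BT mutant, BT WT and PBS libraries. BT mutant was 1.69-fold higher (0.928 to 3.03) than BT WT, with an interval that includes 1. Of 6 receptor genes in BT WT over PBS epithelium, 1 was higher and 1 lower, against 18.7% and 16% of all genes, a like share: Ifnlr1, the type III receptor chain, was 2.37-fold higher (1.85 to 3.07), and Ifnar2, a type I receptor chain, was 1.58-fold lower (1.15 to 2.18) in BT WT. Ifnlr1 had 5.43, 9.19 and 3.87 CPM in the BT mutant, BT WT and PBS libraries, with BT WT highest.

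Of 10 tested genes of the kinase and feedback list in BT WT over PBS epithelium, 3 were higher and 1 lower, against 18.7% and 16% of all genes. Among them, Tyk2 was 1.71-fold higher (1.45 to 2.03) and the feedback gene Socs3 1.59-fold lower (1.38 to 1.83) in BT WT than in PBS. Of 12 tested sensing genes, 5 were higher and 1 lower, against 18.7% and 16% of all genes, with Unc93b1, which carries nucleic acid receptors to endosomes, 2.17-fold higher (1.85 to 2.54) and the RNA editor Adar 2.03-fold higher (1.8 to 2.31) in BT WT. In BT mutant over BT WT epithelium, 1 of 12 sensing genes was higher and 3 lower, against 11% and 15% of all genes. In macrophage-like cells Socs3 had 826, 720.5 and 381 CPM in the BT mutant, BT WT and PBS libraries. Of 10 tested sensing genes there, 2 were higher and 0 lower in BT mutant than in BT WT, against 12.6% and 16.4% of all genes. Adar was 2.04-fold higher (1.14 to 3.78) and the RNA receptor gene Tlr7 2.44-fold higher (1.76 to 3.42) in BT mutant. Ifnar2 in the same cells had 178, 178 and 170.5 CPM in the BT mutant, BT WT and PBS libraries, with little difference.

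The Ifit genes, which bind foreign RNA, gave 6 of 6 higher in BT WT over PBS epithelium, against 18.7% of all genes, and 6 of 6 lower in BT mutant over BT WT epithelium, against 15%. In fibroblast-like cells Ifit1 had 241, 199 and 16.8 CPM in the BT mutant, BT WT and PBS libraries.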

How the data were processed

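Single-cell RNA libraries of colon cells were made with the 10x 3′ version 3 chemistry, 1 library for each of the BT mutant, BT WT and PBS groups, grouped by their labels. The values are raw UMI counts per gene and barcode, deposited as filtered matrices without cell names. Cell Ranger 5.0.0 wrote them, per the file headers, and STAR and the mm10 build are named in the submitters' processing notes. The matrices held 54943483, 55436776 and 42003444 UMIs in BT mutant, BT WT and PBS.

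Barcodes with at least 300 genes and at most 25% mitochondrial UMIs were kept. Cells were scaled to 10000 UMIs, and 2000 variable genes without the members gave 30 principal components, 15 neighbours and Leiden clusters at resolution 1, with subclusters of mixed clusters at 0.5 (scanpy 1.11.5, igraph 0.11.9, scikit-learn 1.9.0). Clusters took a class name from at least 3 detected markers, and mixed or contradicted clusters stayed unnamed. An epithelial cluster with more markers of another subtype than of its own among its 10 leading genes took no subtype. How clusters were split and named was settled after they were seen. Scrublet marked 85, 122 and 0 cells in BT mutant, BT WT and PBS, so it did not work in PBS, and doublets were kept. Removing the highest scores at 0.8% per 1000 barcodes was an alternative.

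Counts were summed per class and library. Ratios of CPM, their exact conditional binomial 95% intervals and a floor of 3 UMIs for a count of 0 were computed with numpy 2.4.6, scipy 1.17.1 and pandas 2.3.3, and figures with matplotlib 3.10.9. Intervals cover counting error only and say nothing of variation between animals. A member was past the limit at 1.5-fold or more with at least 20 UMIs over both libraries. The calculation was tested on simulated data. Members were named with values, by class and comparison, where past the limit with an interval that excludes 1, up to the 4 largest in each direction, or where among the 3 highest levels of the class. Further values show each role, and those members were picked after their values were seen. The members and lists were chosen with earlier results of these data known.

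Other mitochondrial limits, UMI minimums, scalings, cell weights, class definitions and doublet treatment were tried. Leaving out clusters c0 or c6, clusters c9 or c14 alone and the second promoter motif were added after the data were seen. Mx1 and Mx2 were not analysed here, and 1 pathway gene is not reported here.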

Additional observations from a re-analysis of the deposited data

Results flagged for a closer look

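The members below were higher in one cell class and lower in another in the same comparison, each past 1.5-fold with a counting interval that excludes 1. With 1 library a group the differences between classes were not tested. The values are ratios of CPM with exact conditional binomial 95% intervals for counting error.

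In BT WT over PBS, the ratio of Isg15 was 3.76 (2.93 to 4.87) in epithelial-like, 2.16 (1.03 to 4.84) in B-like, 0.589 (0.357 to 0.973) in T-like and 2.77 (1.81 to 4.35) in fibroblast-like cells. That of Bst2 was 0.584 (0.439 to 0.774) in macrophage-like and 1.66 (1.3 to 2.14) in fibroblast-like cells. That of Ifi27l2a was 0.346 (0.269 to 0.442) in epithelial-like, 2.21 (1.87 to 2.62) in macrophage-like and 1.56 (1.46 to 1.67) in fibroblast-like cells. With each cell weighing the same, Bst2 in macrophage-like cells came to 1.11. The 11 fibroblast markers summed to 87.9, 17.7 and 91 CPM in BT mutant, BT WT and PBS epithelial-like cells. The part of RNA from fibroblast-like cells in the epithelial Ifi27l2a ratio was not tested.

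In BT mutant over BT WT, the ratio of Oasl2 was 0.185 (0.16 to 0.214) in epithelial-like, 0.321 (0.106 to 0.816) in B-like and 1.99 (1.27 to 3.18) in macrophage-like cells. That of Oas2 was 0.0468 (0.0199 to 0.0945) in epithelial-like and 1.79 (1.02 to 3.24) in macrophage-like cells. That of Xaf1 was 0.566 (0.484 to 0.661) in epithelial-like and 2.42 (1.4 to 4.34) in macrophage-like cells. That of Dhx58 was 0.54 (0.401 to 0.722) in epithelial-like and 4.12 (1.2 to 21.8) in fibroblast-like cells. That of Rtp4 was 0.194 (0.148 to 0.25) in epithelial-like and 1.73 (1.07 to 2.88) in macrophage-like cells. That of Herc6 was 0.332 (0.254 to 0.429) in epithelial-like and 2.75 (1.26 to 6.66) in macrophage-like cells.

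In BT mutant over PBS, the ratio of Rsad2 was 0.655 (0.54 to 0.795) in epithelial-like, 2.97 (1.18 to 8.89) in macrophage-like and 3.71 (1.44 to 12.2) in fibroblast-like cells. That of Rtp4 was 0.536 (0.384 to 0.748) in epithelial-like, 4.21 (2.05 to 9.73) in macrophage-like and 4.48 (2.38 to 9.32) in fibroblast-like cells. That of Trim30a was 0.383 (0.249 to 0.582) in epithelial-like and 1.63 (1.12 to 2.43) in fibroblast-like cells. That of Gbp7 was 1.54 (1.01 to 2.39) in B-like, 0.65 (0.446 to 0.945) in macrophage-like and 1.63 (1.17 to 2.32) in fibroblast-like cells. That of Irgm1 was 0.527 (0.316 to 0.858) in B-like, 1.84 (1.02 to 3.44) in macrophage-like and 1.83 (1.4 to 2.4) in fibroblast-like cells. Without cluster c6, which is of the PBS library alone, epithelial-like Rsad2 and Rtp4 came to 1.04 and 0.891.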

How the results depend on the processing

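Counts of members past 1.5-fold were recomputed under other choices, and were within 1.5 times of the reported count in 160 of 210 cases. In the epithelium, the count of higher members in BT WT over PBS stayed so under every choice tried. That of lower members in BT mutant over BT WT did so except in cluster c9 alone. Leaving out cluster c0 moved no count. Of 772 recomputed ratios of named members, 107 left the counting interval of the reported value and 7 changed side of 1. The causes of these moves were not tested.

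The counts past those limits follow, with the reported count in parentheses. With each cell weighing the same, BT WT over PBS had 4 lower in epithelial-like cells (1), 2 lower in T-like cells (1) and 2 lower in macrophage-like cells (1). There, BT mutant over BT WT had 3 higher in epithelial-like cells (1), 4 higher in T-like cells (2) and 1 lower in fibroblast-like cells (2). BT mutant over PBS then had 1 lower in macrophage-like cells (2). With at most 10% mitochondrial UMIs, BT WT over PBS had 4 lower in T-like cells (1). The counts of BT mutant over BT WT were then 1 higher in B-like cells (2) and 1 higher in fibroblast-like cells (2). There, BT mutant over PBS had 1 lower in epithelial-like cells (3), 5 higher in T-like cells (8), 4 lower in T-like cells (2) and 1 lower in macrophage-like cells (2). With no minimum of UMIs beyond 1, BT WT over PBS had 5 lower in T-like cells (1) and 2 lower in macrophage-like cells (1). BT mutant over BT WT then had 4 higher in B-like cells (2), 7 lower in B-like cells (4), 6 higher in T-like cells (2), 4 higher in fibroblast-like cells (2) and 4 lower in fibroblast-like cells (2). The counts of BT mutant over PBS were then 5 lower in epithelial-like cells (3), 5 lower in B-like cells (2) and 1 lower in fibroblast-like cells (0). With classes from a gate on each cell's markers, BT WT over PBS had 3 lower in T-like cells (1), 26 higher in macrophage-like cells (14) and 0 lower in macrophage-like cells (1). There, BT mutant over BT WT had 1 higher in B-like cells (2), 4 higher in T-like cells (2), 3 lower in T-like cells (5), 1 higher in fibroblast-like cells (2) and 0 lower in fibroblast-like cells (2). BT mutant over PBS then had 2 higher in B-like cells (6), 1 lower in B-like cells (2), 5 higher in T-like cells (8) and 0 lower in macrophage-like cells (2). With median-of-ratios scaling, BT mutant over BT WT had 2 higher in epithelial-like cells (1). The counts of BT mutant over PBS were then 10 higher in B-like cells (6) and 1 lower in B-like cells (2). With the highest doublet scores out, BT mutant over BT WT had 4 higher in T-like cells (2). There, BT mutant over PBS had 1 lower in macrophage-like cells (2). In colonocyte-like clusters alone, BT WT over PBS had 2 lower in epithelial-like cells (1). BT mutant over BT WT then had 2 higher in epithelial-like cells (1). In cluster c9 alone, BT WT over PBS had 0 lower in epithelial-like cells (1). The counts of BT mutant over BT WT were then 3 higher in epithelial-like cells (1) and 16 lower in epithelial-like cells (25). There, BT mutant over PBS had 6 higher in epithelial-like cells (14). Without cluster c6, BT WT over PBS had 4 lower in epithelial-like cells (1). In cluster c14 alone, BT WT over PBS had 0 lower in macrophage-like cells (1). BT mutant over PBS then had 0 lower in macrophage-like cells (2). The ratios that changed side were, with each cell weighing the same, Bst2 in macrophage-like cells in BT WT over PBS at 1.11 and Rsad2 in epithelial-like cells in BT mutant over PBS at 1.15. With the gate they were, in macrophage-like cells, Bst2 at 1.51 and Ifi27l2a at 0.876 in BT WT over PBS, and Gbp3 at 1.37 and Gbp7 at 1.29 in BT mutant over PBS. Without cluster c6, Rsad2 came to 1.04 in epithelial-like cells in BT mutant over PBS.

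Unthinned shares of cells with UMIs of at least 3 members, in BT mutant, BT WT and PBS, were 66.2%, 76.4% and 40.4% in epithelial-like, 43%, 36.4% and 41.6% in B-like, 58.8%, 56.8% and 56.9% in T-like, 82.5%, 92.3% and 51.6% in macrophage-like and 90.8%, 93.9% and 95.1% in fibroblast-like cells, all above the thinned shares, as deeper cells hold more members. TTCNNNGAA in place of the spaced GAAA pair lay in the window of 32.1% of member genes with a promoter window. The median log2 ratio of all genes lay within 0.1 of 0 except in B-like cells, at -0.17 in BT WT over PBS and -0.13 in BT mutant over PBS, and in T-like cells, at -0.14 in BT WT over PBS. Median-of-ratios scaling takes these shifts out.

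No paired analysis was possible because each group had 1 library. No library was left out of a group for the same reason. Few UMIs limit the macrophage-like and T-like ratios most, which rest on few cells. The gate's PBS macrophage-like class holds cells of fat clusters, which hold most of its UMIs.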
